A study of Mus musculus with 16 samples.

Results

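The 8 genes described here are regulators and markers of the luminal progenitor and alveolar lineage of the mammary gland: the ETS transcription factors *Elf5* and *Ehf*, the STAT factors *Stat5a* and *Stat5b*, the zinc finger factor *Gata3*, the receptor *Kit*, the enzyme *Aldh1a3* and the lipopolysaccharide co-receptor *Cd14*. They were chosen by name from the 23609 genes of an RNA-seq table, and all 8 were present and were among the 21034 genes tested. RNA came from primary mammary tumors of mice that carried the MMTV-PyMT transgene, in which the mouse mammary tumor virus promoter drives the polyoma middle T antigen mainly in mammary epithelium and induces tumors there. Gene trap tumors came from MMTV-PyMT animals with 1 trapped copy of *Resf1* (labelled Resf1 +/-), and wildtype tumors came from MMTV-PyMT littermates with an intact *Resf1*. The trap is a lentiviral insertion in the first exon of *Resf1* that also expresses an EGFP-Cre fusion, so it is a single insertion line and the trapped copy is present in every cell of the host, not in the epithelium alone. Values from 5 wildtype and 5 gene trap tumors were used. The labels do not say whether each tumor came from a separate animal or give ages, so the p-values measure the spread between these tumors.

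Milk-secreting alveolar cells arise from luminal progenitors, which are recognized by KIT, CD14 and aldehyde dehydrogenase activity. Prolactin binding to its receptor activates JAK2, which phosphorylates STAT5A and STAT5B, and STAT5 together with ELF5 turns on the alveolar program and the milk protein genes. GATA3 establishes and maintains luminal identity. PyMT tumors are known to lose hormone receptors as they advance.

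The values are read estimates per gene that the authors scaled between tumors by the median ratio method, here called normalized values. The depth of each tumor is unknown, because whole reads could not be recovered, and the column totals lay between 31995078 and 42153593. Epithelial markers of the labelled tissue were abundant, with *Epcam* and *Krt8* at a mean of 10142 and 10526 normalized units per kilobase of exon. Gene trap replicate 2 stood apart from the rest, with a first principal component score (31.1% of the variance) of 91.8 where the other 9 tumors lay between -18.6 and -4.78, and values without it stand beside a number of the results. The trapped gene *Resf1* had normalized values of 4215, 4397, 3881, 4487 and 3517 in wildtype tumors 1 to 5 and of 4029, 3066, 3686, 3392 and 3409 in gene trap tumors 1 to 5. The log2 fold change of *Resf1*, gene trap minus wildtype, was -0.22 (SE 0.09), its unadjusted p in limma was 0.0313 and its p adjusted by the Benjamini-Hochberg method over all tested genes was 0.9997. Without gene trap tumor 2, which had the lowest value, it was -0.17 (SE 0.09, unadjusted p 0.0684).

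The question asked of the members was whether any of them differed between tumors with a trapped and with an intact copy of *Resf1*. None passed limma's test: 0 of the 8 had an adjusted p under 0.05, where 0 of 21034 genes did (0%), and 0 had an unadjusted p under 0.05, where 479 genes did (2.28%). The 2 groups overlapped for all 8 members, while they did not overlap for 111 of the tested genes (0.528%). Fold changes were above 0 on the log2 scale for 2 members, *Stat5a* and *Gata3*, and below 0 for the other 6. The members' median log2 fold change was -0.06 (-0.08 without gene trap tumor 2), beside 0.00 over all tested genes. Their median size of change, 0.06 on the log2 scale, was below the 0.10 of all tested genes, and so was their median standard error, 0.11 beside 0.16.

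**Figure D1:**
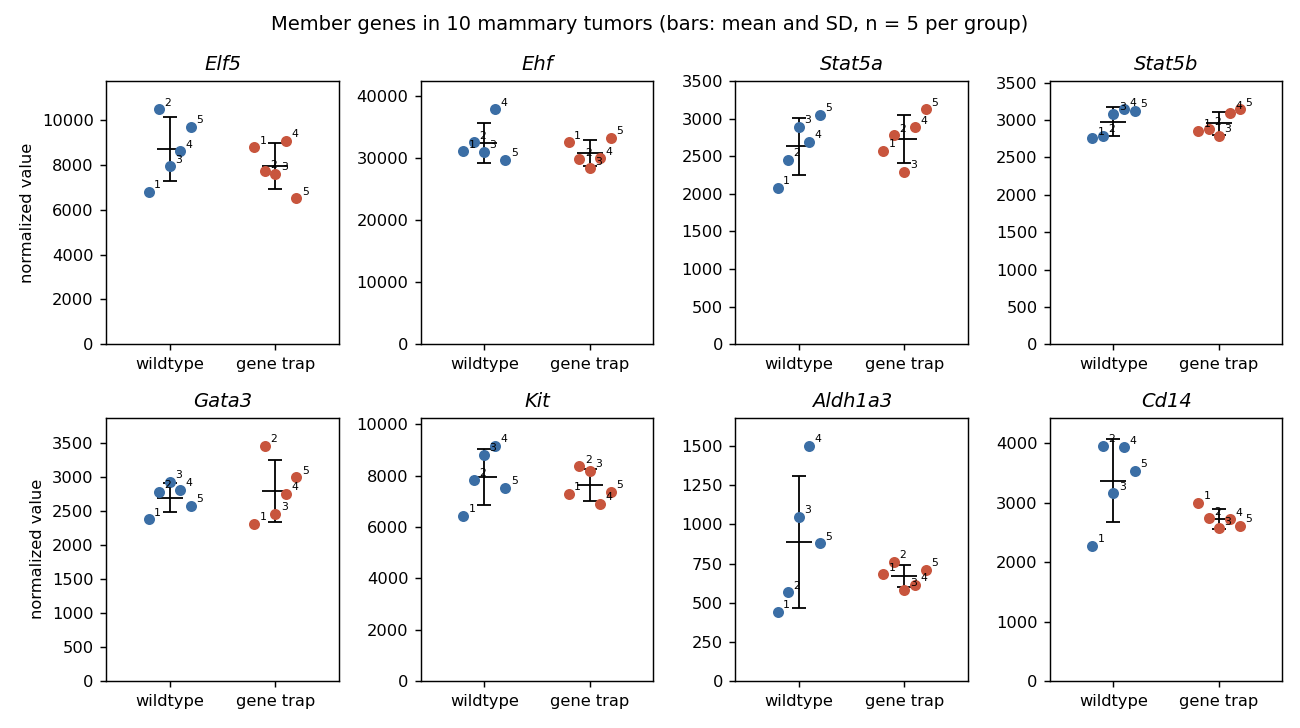
Normalized value (y axis, from 0) of each member in the 5 wildtype and 5 gene trap tumors (x axis), with points numbered by replicate and bars giving the mean and SD. The groups overlap in all 8 panels, and the wildtype tumors spread from 440 to 1501 for *Aldh1a3* and from 2275 to 3957 for *Cd14* while the gene trap tumors stay between 584 and 761 and between 2570 and 3001.

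Among the transcription factors, *Elf5* (ENSMUSG00000027186, chromosome 2) is the ETS factor that commits luminal progenitors to the alveolar fate. Its normalized values were 6807, 10482, 7933, 8613 and 9702 in wildtype tumors 1 to 5 and 8786, 7706, 7602, 9077 and 6503 in gene trap tumors 1 to 5. Wildtype tumors 2 and 5 were above every gene trap tumor, and gene trap tumor 5 was below every wildtype tumor. The means were 8707 ± 1446 (SD, n = 5) and 7935 ± 1030 (SD, n = 5), a log2 fold change of -0.13 (SE 0.13, 95% interval -0.40 to 0.14). The unadjusted p in limma was 0.327 (adjusted p 0.9997) and the exact two-sided permutation test gave p = 0.373.

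*Ehf* (ENSMUSG00000012350, chromosome 2), an epithelial ETS factor of the same subfamily as *Elf5*, had the highest level per kilobase of the 8. It measured 31080, 32512, 30981, 37856 and 29695 in wildtype tumors 1 to 5 and 32530, 29787, 28324, 29966 and 33293 in gene trap tumors 1 to 5. Wildtype tumor 4 was highest and gene trap tumor 3 was lowest, and the other tumors of both groups lay between 29695 and 33293. Its log2 fold change was -0.07 (SE 0.09, 95% interval -0.27 to 0.12), and limma's unadjusted p was 0.437. *Elf5* and *Ehf* are neighbours on chromosome 2 with no protein-coding gene between them, and no relation between them was detected, with a Pearson r over the 10 tumors of 0.05 (permutation p = 0.891, adjusted p = 0.891) and a rho of -0.07 (permutation p = 0.866, adjusted p = 0.981). *BC016548*, a noncoding gene that lies between them and was chosen for mention after its values were seen, had an r of 0.91 with *Elf5* and of -0.18 with *Ehf*, given as a description. Whether the exons of *BC016548* and *Elf5* overlap was not checked. Whether strand was used in counting is not given in the sources used here, so their reads could not be told apart in any overlap.

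*Stat5a* (ENSMUSG00000004043, chromosome 11) encodes the STAT that is most needed for alveolar development in response to prolactin. Its normalized values were 2079, 2454, 2889, 2690 and 3051 in wildtype tumors 1 to 5 and 2570, 2781, 2290, 2885 and 3126 in gene trap tumors 1 to 5, with wildtype tumor 1 below all others. The log2 fold change was 0.06 (SE 0.11, 95% interval -0.19 to 0.30, limma unadjusted p 0.620), and it was -0.02 without wildtype tumor 1. *Stat5b* (ENSMUSG00000020919, chromosome 11), the paralog that serves mainly growth hormone signaling, was the steadiest member. It measured 2754, 2789, 3086, 3145 and 3127 in wildtype tumors 1 to 5 and 2856, 2886, 2793, 3099 and 3145 in gene trap tumors 1 to 5, and its highest tumor was 1.14 times its lowest. In both groups the values fell into a lower and a higher set of tumors. For *Stat5b* the log2 fold change was -0.01 (SE 0.07, 95% interval -0.16 to 0.14, limma unadjusted p 0.874).

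*Gata3* (ENSMUSG00000015619, chromosome 2) had normalized values of 2375, 2778, 2925, 2808 and 2569 in wildtype tumors 1 to 5 and of 2304, 3450, 2453, 2745 and 2987 in gene trap tumors 1 to 5. Gene trap tumors held both the lowest and the highest value, and the highest belonged to gene trap tumor 2, the tumor that stood apart. This gave a log2 fold change of 0.04 (SE 0.11, 95% interval -0.19 to 0.27, limma unadjusted p 0.717) with that tumor and -0.04 (SE 0.09) without it.

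Of the cell surface and enzyme markers, *Kit* (ENSMUSG00000005672, chromosome 5) encodes the receptor tyrosine kinase for stem cell factor. It measured 6443, 7847, 8828, 9163 and 7528 in wildtype tumors 1 to 5 and 7290, 8363, 8190, 6908 and 7373 in gene trap tumors 1 to 5. The gene trap values all lay within the wildtype range. Its log2 fold change was -0.06 (SE 0.10, 95% interval -0.27 to 0.16, limma unadjusted p 0.592). Mast cells also carry KIT. The 5 of 8 mast cell markers found in the table, none of them at 0, had sums from 65.7 to 181 in wildtype tumors and from 67.5 to 182 in gene trap tumors. The mast cell score, made from the 4 tested markers, had an r of 0.33 with *Kit* (permutation p = 0.348, adjusted p = 0.634).

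*Aldh1a3* (ENSMUSG00000015134, chromosome 7) encodes an aldehyde dehydrogenase that makes retinoic acid from retinaldehyde. It was the most variable member, with values of 440, 565, 1048, 1501 and 878 in wildtype tumors 1 to 5 and of 680, 761, 584, 612 and 710 in gene trap tumors 1 to 5. Wildtype tumors 3, 4 and 5 were above every gene trap tumor, and wildtype tumors 1 and 2 were below every gene trap tumor. The means were 886 ± 420 (SD, n = 5) and 669 ± 71.8 (SD, n = 5), a coefficient of variation of 47.4% in wildtype and 10.7% in gene trap tumors. On the log2 scale the fold change was -0.28 (SE 0.27, 95% interval -0.87 to 0.31, limma unadjusted p 0.325), and it rested on single tumors: it was -0.05 without wildtype tumor 4 and -0.50 without wildtype tumor 1 (limma unadjusted p 0.0493, adjusted p 0.9996).

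*Cd14* (ENSMUSG00000051439, chromosome 18), which binds lipopolysaccharide and hands it to Toll-like receptor 4, came nearest to limma's threshold. It measured 2275, 3957, 3159, 3934 and 3534 in wildtype tumors 1 to 5 and 3001, 2739, 2570, 2720 and 2616 in gene trap tumors 1 to 5. Wildtype tumors 2 to 5 were above every gene trap tumor, and wildtype tumor 1 was below every gene trap tumor. The means were 3372 ± 695 (SD, n = 5) and 2729 ± 167 (SD, n = 5), a fold of 0.824 with a 95% interval of 0.673 to 1.01. The log2 fold change was -0.28 (SE 0.13), limma's unadjusted p was 0.0600 and its adjusted p was 0.9997, and the exact two-sided permutation test gave p = 0.103, where 5 tumors against 5 can reach 0.00794 at the smallest. Without wildtype tumor 1 the log2 fold change of *Cd14* was -0.41 (SE 0.09) and limma's unadjusted p was 0.000544, which after adjustment was 0.9996. Without wildtype tumor 2 it was -0.21 (SE 0.14, limma unadjusted p 0.146).

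Macrophages also express *Cd14*. The 12 macrophage markers, none of them at 0, had sums from 15965 to 26450 in wildtype tumors (median 21482) and from 17181 to 24027 in gene trap tumors (median 19292), and 3 of them were higher and 9 lower in gene trap tumors with none past the test. The macrophage score had an r of 0.33 with *Cd14* over the 10 tumors (permutation p = 0.347, adjusted p = 0.634). With single tumors left out it ran from 0.16 (without wildtype tumor 1) to 0.64 (without wildtype tumor 2). The mast cell score had an r of 0.50 and a rho of 0.72 with *Cd14* (permutation p = 0.141 and 0.0238, adjusted p = 0.567 and 0.436). The 9 basal and myoepithelial markers were all lower in gene trap tumors, and their median difference on the log2 scale was -0.36. *Krt17* (log2 fold change -0.63, unadjusted p 0.0174) and *Myh11* (-0.67, unadjusted p 0.0186) had an unadjusted p under 0.05 in limma and an adjusted p of 0.9997. Their summed values lay between 8538 and 11117 in wildtype and between 6010 and 8972 in gene trap tumors. The basal score had an r of 0.48 and a rho of 0.50 with *Cd14* over the 10 tumors (permutation p = 0.163 and 0.142, adjusted p = 0.567 and 0.643). This r was 0.12 on deviations from the genotype means. With single tumors left out it ran from 0.30 (without wildtype tumor 2) to 0.80 (without wildtype tumor 1). In whole tumors, fewer cells of a type and less RNA per cell cannot be told apart.

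**Figure D2:**
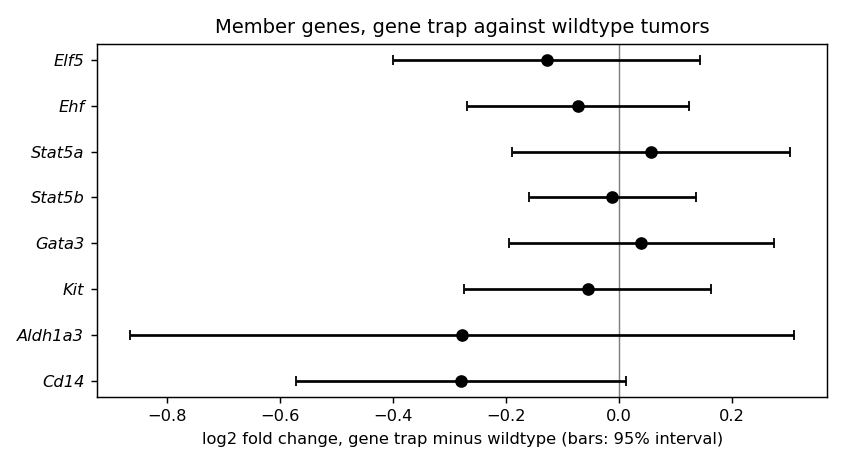
Log2 fold change of each member, gene trap minus wildtype (x axis), as a point with its 95% interval from limma. All 8 intervals include 0, the interval of *Stat5b* is the narrowest (-0.16 to 0.14) and that of *Aldh1a3* the widest (-0.87 to 0.31).

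The coefficient of variation was smaller in gene trap than in wildtype tumors for 7 of the 8 members, the exception being *Gata3* (8.11% in wildtype and 16.3% in gene trap tumors), and for 40.4% of all tested genes. Without gene trap tumor 2 it was smaller for 7 of the 8 and for 53.9% of all tested genes. For *Cd14* it was 20.6% and 6.13%, and the difference in spread was not tested. Some tumors ranked alike across members. Wildtype tumor 1 was the lowest of the 10 tumors for 5 members and among the lowest 3 for 7, gene trap tumor 3 was among the lowest 3 for 7, and wildtype tumor 4 was the highest for 4.

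Levels can be compared between genes only per length, and were calculated as the normalized value per kilobase of exon. *Ehf* was highest, with a mean of 5668 over the 10 tumors (range 5080 to 6789) that lay at the 98.9th percentile of the tested genes. *Cd14* (1761, range 1313 to 2285) and *Elf5* (1416, range 1106 to 1784) followed with overlapping ranges, and *Kit* (875, range 723 to 1028) overlapped with *Gata3* (689, range 579 to 867). *Stat5b* (536, range 497 to 568) lay below every *Gata3* value and above every *Stat5a* value (376, range 291 to 438). *Aldh1a3* was lowest, with a mean of 168 (range 95.2 to 325, overlapping *Stat5a*) at the 59.5th percentile. Beside these, the hormone-sensing luminal genes *Esr1*, the estrogen receptor, and *Foxa1*, its pioneer factor, averaged 36.9 and 16.5 per kilobase, and *Prlr*, the prolactin receptor, averaged 311. Of the relatives of the members, *Elf3* averaged 191 and *Spdef* 355 per kilobase where *Elf5* and *Ehf* averaged 1416 and 5668, *Stat3* averaged 1299 where *Stat5a* averaged 376, and *Aldh1a1* averaged 35.5 where *Aldh1a3* averaged 168. *Kitl*, the ligand of KIT, averaged 561.

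**Figure D3:**
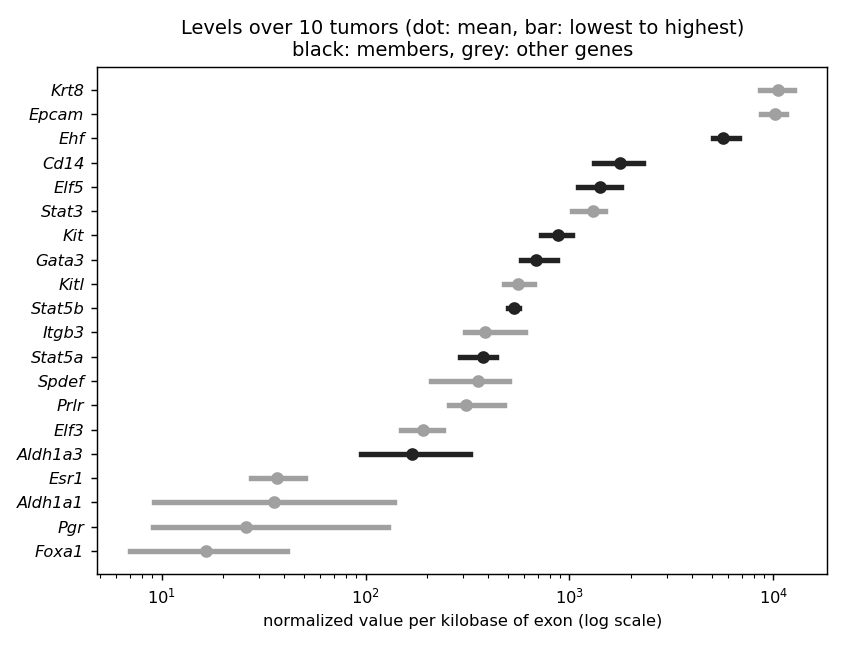
Normalized value per kilobase of exon (x axis, log scale) of the members (black) and of other genes of the same pathways (grey), with dots for the mean over the 10 tumors and bars from the lowest to the highest tumor. *Ehf* has a mean of 5668, next to the luminal genes *Krt8* (10526) and *Epcam* (10142), and *Aldh1a3*, with a mean of 168, lies above *Esr1* (36.9).

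Over the 10 tumors, 27 of the 28 pairs of members had a positive r on the log2 scale, with a median of 0.32. The same share over all pairs of tested genes was not calculated. Without wildtype tumor 1, r fell below 0 for some pairs, such as *Elf5* and *Stat5a* (0.14 to -0.24) and *Stat5a* and *Kit* (0.26 to -0.23). For *Stat5b* and *Aldh1a3* it was 0.63 without that tumor. Of the 28 pairs, 1 passed the Benjamini-Hochberg adjustment. That pair was *Stat5a* and *Stat5b*, with r = 0.87 (permutation p = 0.00079, adjusted p = 0.0221) and rho = 0.79 (permutation p = 0.00862, adjusted p = 0.121). It was 0.90 without gene trap tumor 2, 0.89 on deviations from the genotype means and 0.80 without the 2 tumors farthest from the median of *Stat5a* (exact permutation p = 0.0210, adjusted p = 0.293). The genes are direct neighbours, and 608 of the 50-base windows of their transcripts are identical (8.21% of those of *Stat5a* and 11.0% of those of *Stat5b*), so reads from these stretches cannot be assigned to either, and the counting of such reads is not given in the sources used here. *Stat3*, the next gene on the other side of *Stat5a*, shares no such window and had an r of -0.27 with *Stat5a* and of -0.18 with *Stat5b*.

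*Elf5* had an r of 0.14 with *Stat5a* and of 0.05 with *Stat5b*. To set the STAT5 pair beside *Elf5*, the sequences before their start sites are shown, with each CG in capitals. They are the parts outside annotated exons of the RefSeq promoter windows, which run from 250 bases before to 50 bases after a start, in build GRCm38.p6, and are written 5′ to 3′ on the strand of the gene. The runs end at unlike distances from the start. They cover 250 to 140 bases before it for *Stat5a*, 250 to 144 for *Stat5b* and 250 to 7 for *Elf5*. The *Stat5a* run is chr11:100860234-100860344 (plus strand), the *Stat5b* run is chr11:100850725-100850831 (minus strand) and the *Elf5* run is chr2:103423818-103424061 (plus strand).
Stat5a: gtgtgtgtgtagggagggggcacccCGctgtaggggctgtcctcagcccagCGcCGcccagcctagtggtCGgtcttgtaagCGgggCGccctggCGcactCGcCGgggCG
Stat5b: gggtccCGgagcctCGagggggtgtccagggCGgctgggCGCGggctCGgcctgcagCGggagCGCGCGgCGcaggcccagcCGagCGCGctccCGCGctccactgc
Elf5: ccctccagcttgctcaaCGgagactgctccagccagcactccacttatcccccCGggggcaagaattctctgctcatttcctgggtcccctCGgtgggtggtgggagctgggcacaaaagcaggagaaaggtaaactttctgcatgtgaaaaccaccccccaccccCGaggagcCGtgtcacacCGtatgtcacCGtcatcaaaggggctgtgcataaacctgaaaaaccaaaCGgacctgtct
The whole 300-base window of *Stat5b* holds 50 CG (99.2nd percentile of 32851 windows), that of *Stat5a* 27 (85.2nd percentile) and that of *Elf5* 10 (57.6th percentile), beside a median of 7. Other start sites of these genes hold 7, 5 and 3. The STAT motif TTCNNNGAA, which reads the same on both strands, is in 0 of the 9 windows of the 5 members with a window used here and in 8.3% of all windows. A GATA motif (AGATAA or AGATAG, and likewise TGATAA or TGATAG, on either strand) is in 2 of the 9, the upstream *Elf5* window and the *Gata3* window, and in 29.8% of all windows. *Ehf*, *Aldh1a3* and *Cd14* had no entry.

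A further 3 pairs had an unadjusted permutation p under 0.05 and did not pass the adjustment. *Kit* and *Aldh1a3* had r = 0.78 and rho = 0.67 (permutation p = 0.00712 and 0.0398, adjusted p = 0.0897 and 0.247). Their r was 0.46 without the 2 tumors farthest from the median of *Kit*, wildtype tumors 1 and 4, and 0.68 without wildtype tumor 4 alone. *Elf5* and *Cd14* had r = 0.78 and rho = 0.77 (permutation p = 0.00961 and 0.0130, adjusted p = 0.0897 and 0.121), with r = 0.70 without the 2 tumors farthest from the median of *Elf5*. *Stat5b* and *Aldh1a3* had r = 0.71 and rho = 0.81 (permutation p = 0.0150 and 0.00736, adjusted p = 0.105 and 0.121), with r = 0.55 without the 2 tumors farthest from the median of *Stat5b*. Without gene trap tumor 2, the r of *Stat5b* and *Gata3* moved from 0.37 to 0.67, and without wildtype tumor 1 it was 0.23. That of *Ehf* and *Gata3* moved from 0.09 to 0.36 without gene trap tumor 2, and it was -0.06 without gene trap tumor 3. These are given as values with no test.

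Of 96 relations between members and scores of 12 cell type marker lists, 1 passed the adjustment. *Gata3* followed the pan-luminal score, the mean log2 value of *Epcam*, *Krt8*, *Krt18* and 6 other epithelial genes, with r = 0.90 (permutation p = 0.00017, adjusted p = 0.0163) and rho = 0.90 (permutation p = 0.00085, adjusted p = 0.0816). It was 0.89 without gene trap tumor 2, 0.91 on deviations from the genotype means and 0.83 without the 2 tumors with the farthest scores (exact permutation p = 0.00781, adjusted p = 0.518). The summed pan-luminal values lay between 85382 and 112249 in wildtype and between 87762 and 118683 in gene trap tumors. The endothelial score had an r of -0.81 and a rho of -0.73 with *Gata3* (permutation p = 0.00444 and 0.0205, adjusted p = 0.213 and 0.436), and r was -0.67 without gene trap tumor 2. Without that tumor the r of the hormone-sensing luminal score with *Gata3* moved from 0.32 to 0.68, but without gene trap tumor 5 it was 0.19. Gene trap tumor 5 had a hormone-sensing score of 1.51, and the next highest was 0.31. The r of the endothelial score with *Ehf* moved from -0.35 to -0.64 without gene trap tumor 2, but it was 0.03 without wildtype tumor 4. These are given as values with no test.

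**Figure D4:**
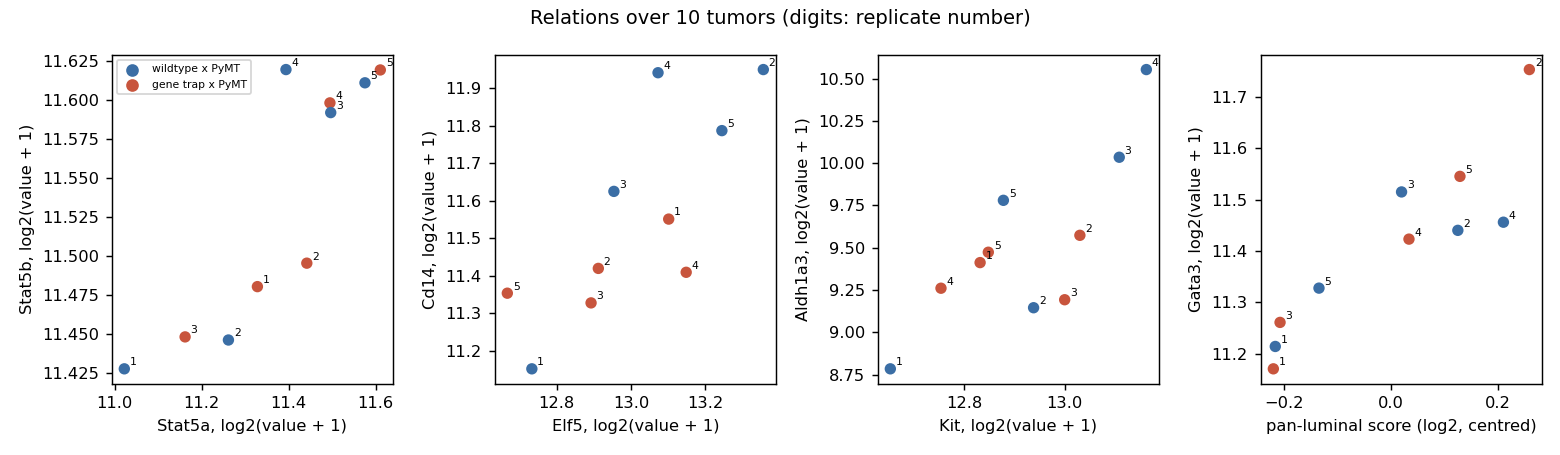
Log2 values of 3 pairs of members, and of *Gata3* against the pan-luminal score, in each of the 10 tumors, with wildtype in blue, gene trap in red and points numbered by replicate. *Stat5a* and *Stat5b* (r = 0.87) and *Gata3* and the score (r = 0.90) follow each other in both groups, while the r of *Kit* and *Aldh1a3* (0.78) was 0.46 without wildtype tumors 1 and 4.

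The genes most like each member over the 10 tumors were sought among the other 21033 tested genes by Pearson r, as a description, since these were picked as the highest of many values. The closest were *BC029722* (r = 0.98) and *Coq7* (0.98) for *Gata3*, *Usp2* (0.97) and *Tfcp2l1* (0.91) for *Aldh1a3*, *Dpagt1* (0.95) and *Ttc25* (0.93) for *Elf5*, and *Ntng1* (0.93) and *Efhd2* (0.92) for *Cd14*. *Krt19*, a luminal keratin, was first for *Stat5a* (0.91), *Ccdc92* for *Stat5b* (0.91), *Coq10b* for *Ehf* (0.90) and *Cd68*, a lysosomal protein of macrophages, for *Kit* (0.88). The score of the 12 macrophage markers, *Cd68* among them, had an r of 0.31 with *Kit* (permutation p = 0.379, adjusted p = 0.634). No member was among the 3 most alike genes of another.

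The pathways around the members were followed with 11 lists, and limma gave 0 genes of any list an adjusted p under 0.05. Upstream of STAT5, the 10 receptors and kinases split into 5 higher and 5 lower in gene trap tumors, and into 8 higher and 2 lower without gene trap tumor 2. Of these, *Prlr* measured 4770 ± 486 and 4779 ± 1442 (SD, n = 5 each; log2 fold change -0.03), *Jak2* had a log2 fold change of -0.10 (SE 0.13), and *Jak1* came nearest to the threshold with -0.15 (unadjusted p 0.0669). Without gene trap tumor 2 these values were 0.01, 0.01 and -0.11. *Stat3*, which acts in the involuting gland, had a log2 fold change of 0.05 (SE 0.10). The 16 inhibitors of JAK-STAT5 signaling had a median of 0.03, with 11 higher and 5 lower. Their feedback members *Cish* and *Socs2*, which STAT5 itself induces, had log2 fold changes of -0.04 (SE 0.17) and 0.10 (SE 0.29).

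Downstream, the 12 tested of 15 STAT5 and ELF5 targets other than milk genes had a median of -0.02, with 5 higher and 7 lower. The largest in value, *Ccnd1*, a cyclin of the G1 phase, had a log2 fold change of -0.18 (SE 0.14) and *Id2*, an inhibitor of basic helix-loop-helix factors, had -0.19 (SE 0.12). The 20 milk and alveolar genes had the lowest median of the 11 lists, -0.21, with 4 higher and 16 lower (-0.30, with 2 higher and 18 lower, without gene trap tumor 2), and 1 of them, *Muc15*, a mucin, had an unadjusted p under 0.05 (log2 fold change -0.29, SE 0.13, p 0.0472). *Csn2*, the beta-casein gene, ranged 42.1-fold between tumors, with means of 970 ± 1319 and 248 ± 246 (SD, n = 5 each) and a log2 fold change of -1.24 (SE 0.89, unadjusted p 0.187). *Wap*, whey acidic protein, ranged 7.32-fold (log2 fold change -0.38, SE 0.48). *Csn3*, kappa-casein, was the most abundant per tumor, at 151324 ± 19960 and 144456 ± 20851 (SD, n = 5 each), with a log2 fold change of -0.07 (SE 0.14). *Xdh*, which is needed for milk fat secretion, went the other way with 0.29 (SE 0.14, unadjusted p 0.0611).

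The 18 other luminal progenitor markers divided into 9 higher and 9 lower (5 and 13 without gene trap tumor 2). *Prom1*, counted among the higher genes in both settings, also stands in the list of hormone-sensing luminal markers. Of the 18, 2 had an unadjusted p under 0.05, in opposite directions. *Bcl11a*, a zinc finger factor of luminal progenitors, measured 777 ± 160 and 1019 ± 155 (SD, n = 5 each; log2 fold change 0.40, SE 0.15, p 0.0173), and *Plet1*, a surface protein, measured 30575 ± 4701 and 25396 ± 1675 (SD, n = 5 each; log2 fold change -0.26, SE 0.11, p 0.0419). *Itgb3*, the integrin also called CD61, had a log2 fold change of -0.26 (SE 0.15, unadjusted p 0.0942). The 13 genes of KIT signaling had a median of 0.03 (8 higher, 5 lower), with *Kitl* at -0.03 (SE 0.10). The 12 other genes of the ETS family had a median of 0.06 (8 higher, 4 lower). Among them, *Elf3* was at -0.02 (SE 0.16, and 0.04 without gene trap tumor 2) and *Spdef* at 0.31 (SE 0.22). These 12 were listed as epithelial ETS factors, but the list also holds genes such as *Erg* and *Ets1*. Whether their RNA came from epithelium was not tested.

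The 19 tested of 20 genes of the ALDH family and retinoic acid metabolism had a median of 0.08, with 12 higher and 7 lower, which was -0.03, with 9 higher and 10 lower, without gene trap tumor 2. *Aldh1a1*, the relative of *Aldh1a3*, ranged 15.0-fold between tumors and had a log2 fold change of 0.42 (SE 0.62). The 16 genes of the CD14 and Toll-like receptor 4 pathway had a median of 0.02, with 9 higher and 7 lower. *Tlr4* had a log2 fold change of -0.15 (SE 0.09, unadjusted p 0.109), *Ly96*, its partner MD-2, had 0.00 (SE 0.21, and -0.16 without gene trap tumor 2), and *Il1b*, a cytokine it induces, had -0.61 (SE 0.33, unadjusted p 0.0923). The 11 tested of 14 GATA factors and partners had a median of 0.00, with 5 higher and 6 lower, among them *Foxa1* at -0.24 (SE 0.43) and *Esr1* at -0.15 (SE 0.19).

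**Figure D5:**
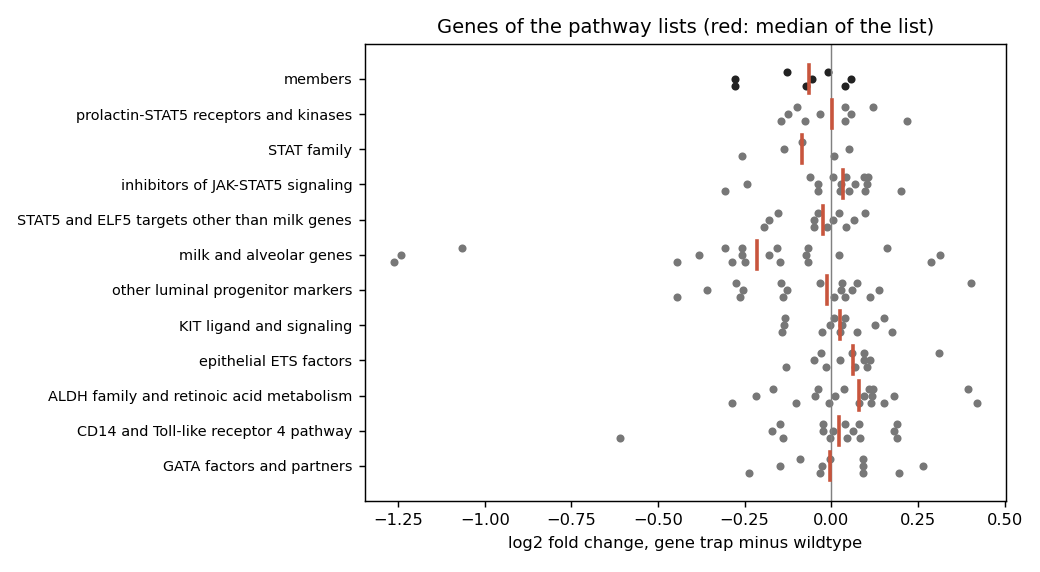
Log2 fold change, gene trap minus wildtype (x axis), of each tested gene of the 11 pathway lists and of the members, with the median of each list in red. The medians lie between -0.21 for the milk and alveolar genes and 0.08 for the ALDH family and retinoic acid metabolism, a median that is -0.03 without gene trap tumor 2, with the members at -0.06.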

How the data were processed

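Per the labels, RNA was isolated with Trizol and libraries were made with the TruSeq Stranded Total RNA kit. The submitters' processing notes name Partek, STAR 2.7.8a, DESeq2 and the build mm39, and the annotation and counter are not given in the sources used here. The authors deposited a signal per gene, read estimates already scaled between tumors by the median ratio method. The values are fractions with 0 zeros and no common step, so depth is unknown and no counting interval is given, and limma took the place of a count test.

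The labels describe 16 tumors, and 10 of 16 columns were matched to a tumor by name. The other 6 were not used. The columns named Hypo were matched to the gene trap tumors because the study calls these mice hypomorphs. Symbols were found for 22899 (97.0%) of 23609 IDs.

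A pseudocount of 1 was added and the log2 was taken, a scale that understates the change of low genes. Genes with a mean of at least 10 were fitted with limma 3.58.1 (R 4.3.3, mean-variance trend, two-sided, genotype only) with Benjamini-Hochberg adjustment over all tested genes. Single genes were also compared by the exact permutation test over 252 arrangements of the tumors. Correlations used 100000 permutations, or all of them for 8 tumors. Exon lengths came from GENCODE mouse release 21 by gene ID (97.6% of tested genes) and promoter windows from RefSeq (GRCm38.p6), another build than that of the files. The fit was checked on simulated data.

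The members and lists were chosen with earlier results of these data known. Named are the members, *Resf1*, the 3 genes most like each member, in each list the 3 genes with the smallest p and the 2 most abundant, and a fixed set of examples, with only some of these printed and 1 result not reported here. *BC016548* was added after its values were seen. Tumors with the same replicate number did not deviate together (correlation over 0.1 in 2 of 5 pairs). Alternatives were other pseudocounts, filters and scalings, weights per tumor, no variance trend, the replicate number as a block and each tumor left out. Calculations and figures used Python 3.11.15 and matplotlib 3.10.9.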

Additional observations from a re-analysis of the deposited data

How the results depend on the processing

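In limma, 0 genes had an adjusted p under 0.05 in the fit as reported and in each of 19 alternatives, and between 304 and 692 genes had an unadjusted one. The lowest adjusted p of a member in any alternative was 0.978. *Elf5*, *Ehf*, *Kit*, *Aldh1a3* and *Cd14* kept a log2 fold change below 0 in all 19. Leaving out single tumors gave a log2 fold change between -0.21 and -0.06 for *Elf5*, -0.10 and -0.02 for *Ehf*, -0.13 and -0.0017 for *Kit*, -0.50 and -0.05 for *Aldh1a3*, -0.41 and -0.21 for *Cd14*, -0.024 and 0.12 for *Stat5a*, -0.039 and 0.0091 for *Stat5b* and -0.041 and 0.10 for *Gata3*. The sign turned for *Stat5a* without wildtype replicate 1 (-0.024), for *Gata3* without wildtype replicate 1 (-0.0041), without gene trap replicate 2 (-0.041) and with weights per tumor (-0.050), and for *Stat5b* without wildtype replicates 3, 4 and 5 (0.0022, 0.0091 and 0.0070) and gene trap replicates 1 and 3 (0.00099 and 0.0090), and the cause was not tested. The unadjusted p of *Cd14* in limma lay between 0.000544 and 0.146 over the 19 alternatives. It was 0.0472 with values rescaled to the column total, 0.0483 with weights per tumor and 0.0499 with quantile normalization. With no variance trend it was 0.0889, and without wildtype replicate 2 it was 0.146. Rescaling to the total moved the median of all genes from 0.00 to -0.02. Without the 2 tumors farthest from the median, 0 member pairs and 0 relations with marker lists (the second an alternative chosen after seeing the data) passed the adjustment, where 1 of each had. The replicate numbers only name the tumors, as 1 of 5 wildtype tumors correlated best with its own number, and with the replicate block 0 genes had an adjusted p under 0.05, 426 had an unadjusted one and the log2 fold change of *Cd14* was -0.28 (p 0.0780). Lists and *Resf1* without gene trap replicate 2 were added after seeing the data. Depth is unknown, so no counting error could be given.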

Other observations

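Markers of other cell types were also measured in the tumors, and none of the 12 lists had a gene with an adjusted p under 0.05 in limma. The 7 fibroblast markers were 6 higher and 1 lower in gene trap tumors (median log2 fold change 0.08), the 7 endothelial markers were all lower (median -0.08, but 4 higher and 3 lower with a median of 0.01 without gene trap tumor 2) and the 3 tested of 7 adipocyte markers were all lower (median -0.48). The 8 tested hormone-sensing luminal markers were 4 higher and 4 lower. T and NK cell markers had sums from 128 to 374 in wildtype tumors and from 124 to 580 in gene trap tumors, and the 6 of 8 neutrophil markers in the table from 347 to 1069.5 and from 379 to 2159. B cell markers (3 of 7 in the table) had sums from 126 to 483 and from 143 to 1200.2, and skeletal muscle markers (5 of 6) from 865 to 11053 and from 1908 to 5152. The neutrophil score, made from the 5 tested markers, had an r of -0.68 with *Stat5a* and of -0.69 with *Stat5b* (permutation p = 0.0310 and 0.0266, adjusted p = 0.567 for both). The T and NK cell score had an r of -0.58 with *Stat5a* and of -0.53 with *Gata3* (permutation p = 0.0746 and 0.115, adjusted p = 0.567 for both).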
